A study of Homo sapiens with 4 samples.

Results

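The genes described here encode metalloproteases of the MMP, ADAM and ADAMTS families and their inhibitors, TIMP1 to TIMP4 and RECK. They were chosen by symbol alone: every gene whose probe set carried it as the single symbol in the platform annotation. That gave 65 of the 18377 genes on the arrays: 22 MMP, 21 ADAM, 17 ADAMTS and 5 inhibitor genes. ADAM5 and ADAM6 are listed as pseudogenes in GRCh38.p14. RNA was taken 48 h after transfection from A549 and H441, both established human lung cancer lines, which had received a non-targeting control siRNA (siNTC) or an siRNA called siTAZ. WWTR1 is the gene for TAZ, a co-activator of transcription. A single Affymetrix whole-transcript array was run for each of the 4 combinations, so no group had a replicate, and nothing in the labels says that the arrays of a line came from separate cultures. In bulk RNA of this kind, fewer cells carrying a transcript and less transcript per cell cannot be told apart.

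Matrix metalloproteinases (MMPs) are zinc enzymes that cut collagens, other matrix proteins and many secreted or surface proteins, and most are made as inactive precursors. Some are secreted, while the membrane-type enzymes stay on the cell surface. ADAM proteins are transmembrane proteins, and the catalytic ones act as sheddases that release growth factors, receptors and adhesion proteins. ADAMTS enzymes are secreted proteases of procollagens, proteoglycans and other matrix components. TIMPs are secreted proteins that block these enzymes to differing extents, and RECK is a membrane-anchored MMP inhibitor. In lung cancer these genes have been studied for their part in invasion and in growth factor release.

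Promoter sequences were read for MMP7, MMP14 and TIMP4, which were over 6-fold apart between the lines, and for MMP10. The latter lies in the same row of MMP genes as MMP7, with MMP20, MMP27 and MMP8 between them. Each line gives the 150 bases before the gene's start from RefSeq, build GRCh38.p14, 5′ to 3′ on the gene's own strand. Capitals mark TGANTCA (N any base), a pattern looser than the AP-1 site, whose middle base is C or G.
MMP7, chr11:102530748-102530897, minus strand: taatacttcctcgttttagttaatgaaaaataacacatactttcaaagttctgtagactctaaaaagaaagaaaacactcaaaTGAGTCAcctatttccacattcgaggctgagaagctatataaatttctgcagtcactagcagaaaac
MMP10, chr11:102780629-102780778, minus strand: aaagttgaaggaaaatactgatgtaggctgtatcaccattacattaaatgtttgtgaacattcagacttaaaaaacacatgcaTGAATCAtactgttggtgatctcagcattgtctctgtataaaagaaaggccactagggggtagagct
MMP14, chr14:22836435-22836584, plus strand: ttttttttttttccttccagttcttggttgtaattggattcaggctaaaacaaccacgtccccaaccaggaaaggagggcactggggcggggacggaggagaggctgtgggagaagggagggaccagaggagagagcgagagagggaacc
TIMP4, chr3:12158913-12159062, minus strand: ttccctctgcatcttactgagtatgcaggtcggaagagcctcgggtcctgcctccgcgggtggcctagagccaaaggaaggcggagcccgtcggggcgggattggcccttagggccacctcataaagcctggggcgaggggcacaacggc
In both MMP7 and MMP10 the match begins 67 bases before the start. Of 38 members in the RefSeq promoter table, 4 (10.5%) had TGANTCA between 250 bases before and 50 bases after the start: MMP7, MMP10, MMP20 and ADAMTS12. Of all 35116 promoters of that length, 7.71% had TGANTCA. The match was TGAGTCA in MMP7 but TGAATCA in MMP10, MMP20 and ADAMTS12, whose middle base is not that of the AP-1 site. The TEAD motif GGAATG, searched on both strands, was in 5 members (13.2%), ADAM17, ADAMTS6, ADAMTS12, ADAMTS13 and ADAMTS20, and in 14% of all promoters. In ADAMTS12, the one member promoter with both motifs, the matches did not overlap. These are letter matches in a window, not measured binding.

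WWTR1 fell from 10.04 to 7.64 in A549 and from 9.61 to 7.47 in H441 on the log2 signal scale (limma adjusted p = 1.55e-11). All 6 epithelial markers reached the median of the whole table (6.13) on all 4 arrays, though EPCAM was at 6.65 and 6.74 in A549 against 12.13 and 12.00 in H441. Of 4 lung lineage markers, NKX2-1, NAPSA and SFTPB reached that median in H441, whereas in A549 only SFTPC did, at 6.36 with siNTC. Markers of other cell types that reached it were COL1A1, CD68 and CD14 in A549 and COL1A1, COL1A2, COL3A1, LUM, KDR and CD68 in H441. PTPRC, CD3E, MS4A1, PECAM1, CDH5, VWF, DCN and PDGFRB were below it on all 4 arrays. No marker passed the limma test for siTAZ. Of the 17 markers tested, 7 had an unadjusted p under 0.05, against 13.2% of all tested genes. Among fibroblast markers COL1A1 had siTAZ differences of 0.41 for A549 and 0.44 for H441 (limma adjusted p = 0.0536), and in H441 COL1A2 had 0.24, COL3A1 0.17 and LUM -0.49. CD14 had 0.72 in A549 and CD68 0.02 and -0.07. KRT7 had -0.25 and -0.42, KRT8 -0.43 and -0.18, KRT18 -0.32 and -0.19 and KRT19 -0.29 and -0.13. The other epithelial markers were higher in A549 and lower in H441, EPCAM with 0.09 and -0.13 and CDH1 with 0.28 and -0.07. Among lung lineage markers SFTPB had 0.67, NKX2-1 0.43 and NAPSA 0.30 in H441, while SFTPC had -0.38 in A549. The part of these markers in the results on metalloprotease genes was not tested.

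A member was tested where at least 1 array reached the table median, which 35 of the 65 did (53.8%), against 69.3% of all genes. The other 30 lay between 4.42 and 5.96 on all 4 arrays. They were the MMP genes MMP1, MMP3, MMP8, MMP10, MMP12, MMP16, MMP19, MMP20, MMP26 and MMP27, the ADAM genes ADAM2, ADAM5, ADAM6, ADAM18, ADAM20, ADAM21, ADAM29, ADAM30 and ADAM32, 10 ADAMTS genes and TIMP3. Thus the interstitial collagenase MMP1 and the stromelysins MMP3 and MMP10 were dim in both lines. Among these 30 genes the siTAZ minus siNTC differences ran from -0.31 to 0.32 in A549 and from -0.43 to 0.23 in H441. Signals of different genes come from different probes and are not ranked against each other here.

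**Figure D1:**
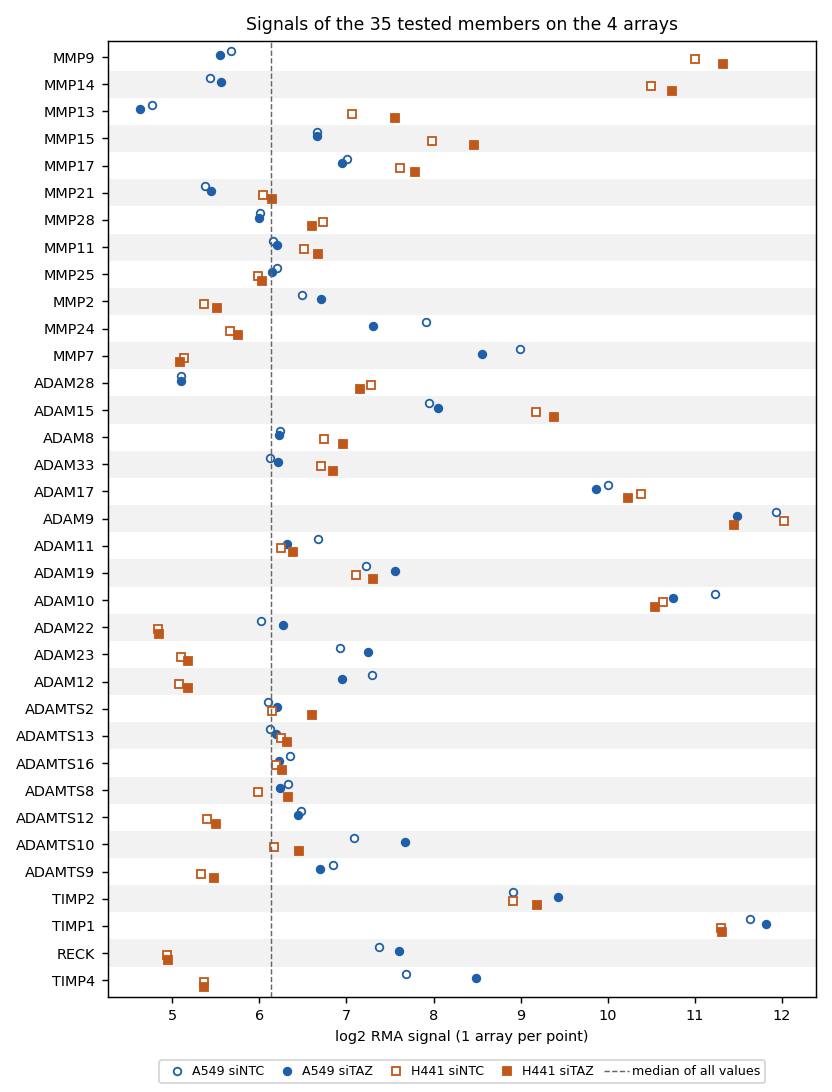
Log2 signals of the 35 tested members, 1 point per array, grouped by family and ordered by the difference between the lines; circles are A549, squares H441, open siNTC and filled siTAZ, and the dashed line is the table median (6.13). MMP9 and MMP14 lie far apart between the lines, with both H441 arrays at 10.50 or above and both A549 arrays at 5.67 or below, while the ADAM9 arrays separate by siRNA instead.

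ADAM9 was the 1 member that changed with siTAZ over both lines. This gene encodes a widely expressed sheddase. The A549 arrays read 11.94 (siNTC) and 11.49 (siTAZ), and the H441 arrays 12.03 and 11.45. Both siTAZ arrays were below both siNTC arrays. With siTAZ the A549 level was 1.37-fold lower and the H441 level 1.495-fold lower, a mean difference of -0.52 ± 0.12 (limma SE, 2 lines; limma adjusted p = 0.0158). The count of 1 in 35 tested members (2.86%) lies near the 2.47% of all 12740 tested genes that were called. Genes called lower made up 1.29% of all tested genes. The SE draws mostly on a prior over all genes. The difference was between -0.56 and -0.47 under every alternative, but the call was lost after quantile normalization (limma adjusted p = 0.0502), after cyclic loess (0.118), without the filter on dim genes (0.0729) and without the cell line in the fit (1), and over 8 alternatives that p ran from 4.2e-07 to 1.

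Of the 35 tested members, 7 (20.0%) had a limma p under 0.05 before adjustment, against 13.2% of all tested genes. Besides ADAM9 these were ADAM10 with a lower mean, and ADAM19, ADAMTS2, ADAMTS10, TIMP2 and TIMP4 with a higher one. None of those 6 passed after adjustment.

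Among the other ADAM genes, ADAM10, the sheddase that acts on Notch receptors and cadherins, had 11.24 with siNTC and 10.75 with siTAZ in A549. In H441 it had 10.64 and 10.55, so the A549 difference was -0.49 and the H441 difference -0.09 (limma adjusted p = 0.29). ADAM17, which releases TNF and EGFR ligands, had differences of -0.14 and -0.16 around signals of 9.86 to 10.39 (adjusted p = 0.652). For both sheddases the siTAZ array was the lower one in each line. ADAM19, a sheddase linked to neuregulin, had 7.22 and 7.55 in A549 and 7.11 and 7.31 in H441 (adjusted p = 0.309). Its siTAZ array was the higher one in each line. ADAM15 read 7.945 and 8.05 in A549 and 9.17 and 9.39 in H441. ADAM8 read 6.24 and 6.22 in A549 and 6.75 and 6.96 in H441. ADAM12, which is induced in many tumours, had 7.29 and 6.95 in A549 and stayed at 5.08 and 5.18 in H441, below the table median. ADAM11, a member that lacks protease activity, read 6.67 and 6.31 in A549 and 6.25 and 6.39 in H441 (adjusted p = 0.794), so its arrays moved in opposite directions. ADAM22 read 6.02 and 6.27 in A549 and 4.83 and 4.85 in H441, and ADAM23 read 6.925 and 7.25 against 5.09 and 5.18. ADAM28 read 5.09 and 5.10 in A549 and 7.28 and 7.155 in H441. Of the ADAM genes at or above the table median in a line, 5 of 11 were higher with siTAZ in A549 and 5 of 9 in H441. Of all genes, 50.9% and 50.8% were.

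No MMP gene passed the limma test for siTAZ, and none of the 12 tested had an unadjusted p under 0.05 (lowest limma adjusted p = 0.405). MMP24, a membrane-type enzyme, read 7.91 on the siNTC array and 7.31 on the siTAZ array of A549, a 1.52-fold lower value. In H441 it was at 5.67 and 5.75, below the table median. MMP7, matrilysin, a small secreted enzyme of epithelial cells, had 8.995 and 8.555 in A549 and 5.13 and 5.08 in H441. Both of these genes therefore had a control signal clearly over the table median in A549 and not in H441. In H441 the larger differences were positive. MMP13, collagenase-3, had 7.07 with siNTC and 7.55 with siTAZ there, and MMP15, a membrane-type enzyme, 7.98 and 8.47, each a difference of 0.49. MMP9, the gelatinase B gene, had 11 and 11.33 in H441, and MMP14, the membrane-type enzyme that activates pro-MMP2, 10.50 and 10.74. In A549 these 4 genes had differences of -0.14 for MMP13, 0.01 for MMP15, -0.12 for MMP9 and 0.13 for MMP14. MMP17, another membrane-type gene, read 7.01 and 6.94 in A549 and 7.61 and 7.78 in H441. MMP21 read 5.375 and 5.44 in A549 and 6.04 and 6.15 in H441. In H441, 7 of 8 MMP genes at or above the table median were higher with siTAZ, against 50.8% of all genes. In A549 3 of 7 were, against 50.9%. Only 3 MMP genes reached that median in both lines, so the counts cover mostly different genes.

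ADAMTS10, which encodes a secreted protein associated with fibrillin microfibrils, had 7.09 with siNTC and 7.67 with siTAZ in A549 and 6.17 and 6.45 in H441. Its siTAZ array was the higher one in both lines, with a mean difference of 0.44 ± 0.12 (limma SE; limma adjusted p = 0.0549). ADAMTS2, a procollagen N-proteinase, had 6.10 and 6.2 in A549 and 6.15 and 6.60 in H441 (adjusted p = 0.308). The siTAZ array was again the higher one in each line. ADAMTS8 read 6.33 and 6.23 in A549 and 5.985 and 6.33 in H441. ADAMTS9, a secreted proteoglycanase, read 6.84 and 6.69 in A549 and 5.325 and 5.475 in H441, and ADAMTS16 read 6.35 and 6.22 against 6.19 and 6.255. All these ADAMTS signals lay between 5.33 and 7.67, a range in which RMA understates fold changes.

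Of the inhibitors, TIMP2 had 8.92 with siNTC and 9.43 with siTAZ in A549. In H441 it had 8.92 and 9.19. Both siTAZ arrays were above both siNTC arrays, with differences of 0.52 and 0.28, a mean of 0.40 ± 0.12 (limma SE; limma adjusted p = 0.082). TIMP4 had 7.68 and 8.49 in A549, a 1.75-fold higher value, and 5.36 on both H441 arrays, below the table median (adjusted p = 0.17). TIMP1 had 11.64 and 11.82 in A549 and 11.30 and 11.32 in H441. RECK had 7.37 and 7.60 in A549 and 4.94 and 4.95 in H441. All 4 inhibitor genes measured at or above the table median in A549 were higher with siTAZ there, against 50.9% of all genes. Their median difference was 0.37, and it was between 0.36 and 0.38 under 3 other scalings. No inhibitor gene passed the test (2 of 4 had an unadjusted p under 0.05). TIMP3 stayed between 5.10 and 5.40, and its 2 probe sets gave opposite signs in each line.

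**Figure D2:**
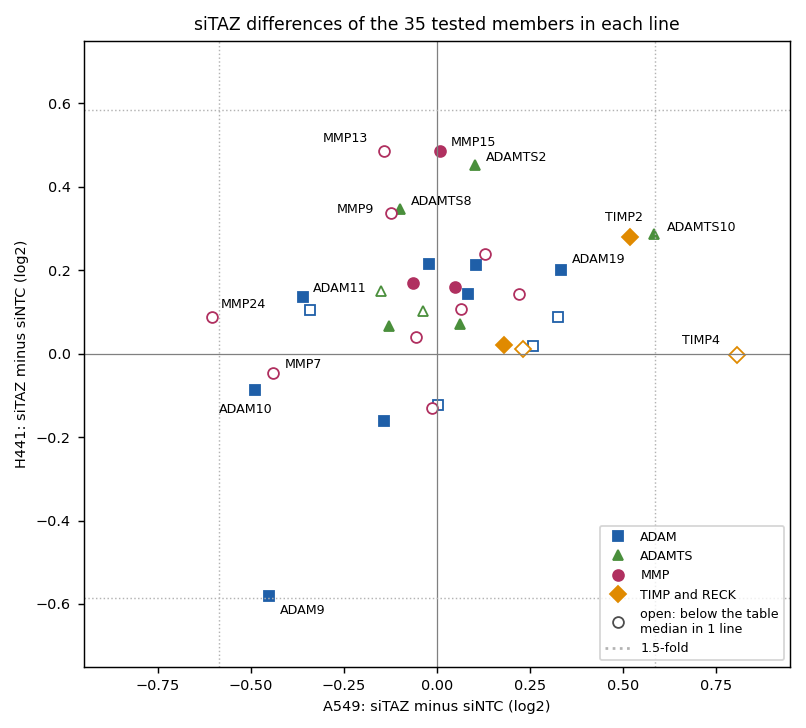
siTAZ minus siNTC on the log2 scale for the 35 tested members, A549 on the x axis and H441 on the y axis, 1 array pair per line; marker shape and colour give the family, open markers had both arrays below the table median in 1 line, and dotted lines mark 1.5-fold. ADAM9 is at -0.45 and -0.58, TIMP2 and ADAMTS10 are at 0.52 and 0.58 in A549 with 0.28 and 0.29 in H441, and TIMP4 is at 0.81 in A549 and -0.0031 in H441.

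The 7 tested members not described one by one were ADAM33, ADAMTS12, ADAMTS13, MMP2, MMP11, MMP25 and MMP28. Their signals lay between 5.37 and 6.85, with differences from -0.06 to 0.22 in A549 and from -0.13 to 0.16 in H441 (limma adjusted p from 0.557 to 0.987).

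Within A549, 2 of 29 members at or above the table median passed 1.5-fold, TIMP4 higher and MMP24 lower. Of all genes there, 1.76% were that much higher and 1.07% that much lower. Within H441, 0 of 24 members passed 1.5-fold, against 1.45% of all genes. These within-line values rest on 1 array per group and have no replicate check. In A549, 15 of the 29 were higher with siTAZ, with a median difference of 0.0084, against 50.9% of all genes and a median of 0.0051. In H441, 19 of 24 were higher, with a median of 0.16, against 50.8% of all genes and a median of 0.0048. After median centring of the arrays the H441 count was 15 of 23, against 3857 of 11619 for all genes. The medians were then 0.09 for the members and -0.08 for all genes. After cyclic loess the count was 16 of 22, against 5940 of 11537 for all genes. Centring also turned TIMP1 and 2 of 5 ADAMTS genes to lower values in H441. Of the 18 members at or above the median in both lines, 13 had the same sign in both (72.2%), 10 higher and 3 lower, against 59.0% of 10576 genes. The lower 3 were ADAM9, ADAM10 and ADAM17. Whether a member responded differently in the 2 lines could not be tested, since an interaction term would use up the 4 arrays.

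The lines differed far more from each other than the siRNAs did. In the same limma fit, which takes the siRNA into account and has 2 arrays per line, 26 of the 35 tested members were called (74.3%), close to the 71.9% of all tested genes. Among the 35 tested members, 13 were called higher in A549 and 13 in H441. Of all tested genes, 19.0% were called higher in A549 and 52.8% in H441. The median A549 minus H441 difference of all tested genes was -0.31 as deposited and 0.02 after cyclic loess, so the directions depend on the scaling: the members' split was 16 and 10 after median centring, 18 and 10 after quantile normalization and 19 and 10 after cyclic loess. For all genes, calls higher in A549 made up 26.5% as deposited, 37.2%, 49.6% and 50.6% under those 3. Of the 25 called members that had a value under all 3 other scalings, ADAM17 alone changed sign, from -0.38 to 0.04 after quantile normalization. Over all 65 members, 17 were at least 2-fold apart, 11 higher in A549 and 6 in H441 (26.2%, against 16.7% of all genes), and 7 at least 4-fold apart (10.8%, against 4.35%). Of the 35 tested, 17 reached the table median in 1 line only, 11 in A549 and 6 in H441. Of all 12740 tested genes, 829 did so in A549 only and 1335 in H441 only. Such a member was kept only because it was higher in 1 line, so the count of calls among these members supports nothing. For these genes the values of the dim line are given as measured, with no p, since the files hold no detection calls and RMA understates folds against dim signals.

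MMP9 was higher in H441, with a mean signal of 11.16 against 5.61 in A549. As measured this was a 47.1-fold difference (-5.56 for A549 minus H441), against A549 signals below the table median. MMP14 was 34.7-fold higher in H441, with means of 10.62 against 5.50. MMP13 was 6.11-fold higher in H441, with means of 7.31 against 4.70, and ADAM28, a sheddase first described in lymphocytes, 4.35-fold higher, with 7.22 against 5.10. The A549 signals of these 3 genes were below the table median too. MMP15 was 2.955-fold and ADAM15 2.43-fold higher in H441, both at or above the table median in either line (limma adjusted p = 9.19e-11 and 8.1e-10). For each of these 6 genes both H441 arrays were above both A549 arrays, which follows from picking them for the size of this difference. MMP17 and MMP21 were 1.65-fold and 1.61-fold higher in H441 as well, the latter with 1 array over the table median and too dim to be tested after the 3 other scalings.

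MMP7 was 12.7-fold higher in A549, with a mean signal of 8.78 against 5.11 in H441 (difference 3.67), the latter below the table median. TIMP4 was 6.61-fold higher in A549 and RECK 5.81-fold higher, with H441 signals below it as well. ADAM12 was 3.98-fold, ADAM23 3.86-fold, MMP24 3.74-fold, ADAMTS9 2.58-fold and ADAM22 2.48-fold higher in A549, again against H441 signals below the table median. ADAM22 and ADAM23 encode surface proteins without protease activity that bind secreted LGI proteins. MMP2, the gelatinase A gene, falls outside the rule for named genes and was chosen after its values were seen: it was 2.23-fold higher in A549, with means of 6.60 against 5.44, the latter below the table median. The gelatinase genes thus lay on opposite sides, MMP9 in H441 and MMP2 in A549. TIMP1 was 1.34-fold and ADAM10 1.32-fold higher in A549, and both genes were above the table median on all arrays (limma adjusted p = 0.00267 and 0.00614). ADAM9 (-0.02, limma adjusted p = 0.855), TIMP2 (0.12, adjusted p = 0.367) and ADAM19 (0.18, adjusted p = 0.17) did not pass the test between the lines as deposited, and scaling decided this. After quantile normalization all 3 were called higher in A549, at 0.38 for ADAM9 (limma adjusted p = 0.00833), 0.51 for TIMP2 (0.00159) and 0.46 for ADAM19 (0.0032). After cyclic loess they were called too (0.0183, 0.0032 and 0.00434), and after median centring ADAM19 alone of these 3 was (0.0198). ADAM11, MMP25 and ADAMTS8 also gained a call under at least 1 of the other scalings.

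**Figure D3:**
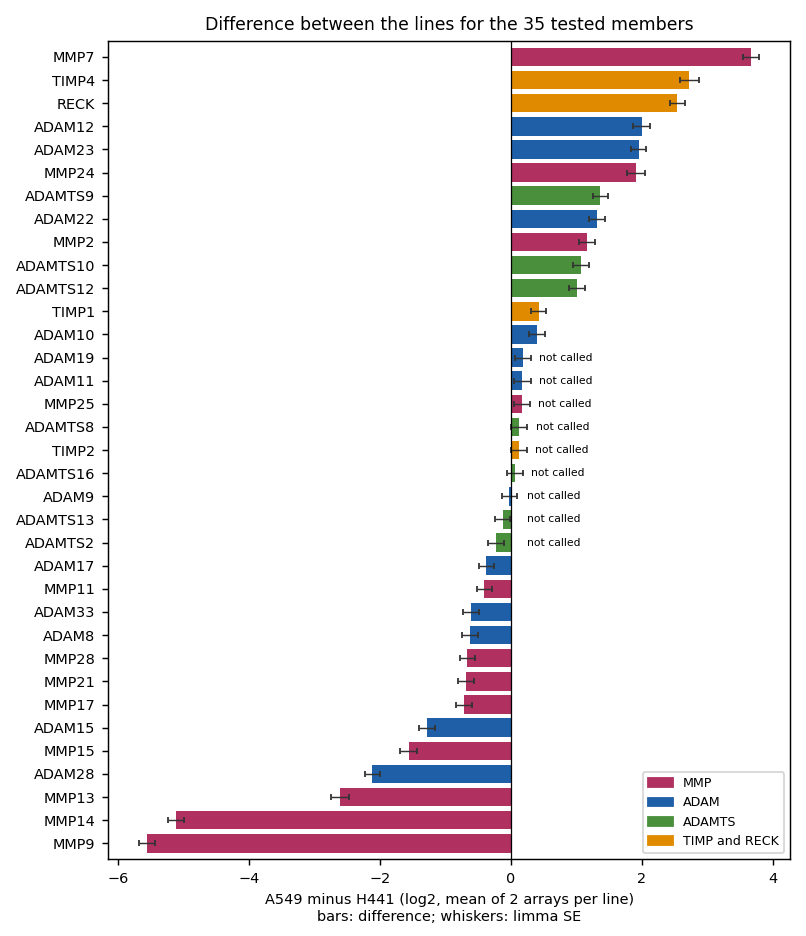
A549 minus H441 on the log2 scale for the 35 tested members, bars for the difference of the means of 2 arrays per line and whiskers for the limma SE, coloured by family; members with a limma adjusted p of 0.05 or more are written as not called. The bars run from -5.56 for MMP9 to 3.67 for MMP7, with 13 called members on each side of 0.

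In GRCh38.p14, 9 of the MMP genes follow one another on chromosome 11 with no other protein-coding gene between them: MMP7, MMP20, MMP27, MMP8, MMP10, MMP1, MMP3, MMP12 and MMP13. In A549 MMP7, at one end, was the 1 gene of the row at or above the table median. In H441 that was MMP13, at the other end. The 7 genes between them lay between 4.42 and 5.65 on all 4 arrays, MMP10 among them. ADAM9 also stands at one end of a row of 5 member genes, and the other 4, ADAM32, ADAM5, ADAM18 and ADAM2, lay between 4.45 and 5.36.

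**Figure D4:**
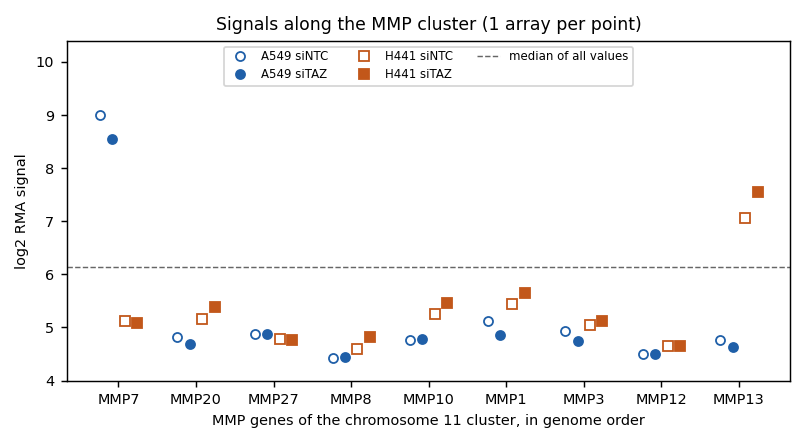
Log2 signals of the 9 MMP genes of the chromosome 11 cluster in genome order, 1 point per array, with the table median (6.13) as a dashed line. MMP7 reaches 8.995 and 8.555 in A549 and MMP13 reaches 7.07 and 7.55 in H441, and the 7 genes between them stay at 5.65 or below.

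Of 21 genes for activators, partners and other inhibitors of these enzymes, 1 of 17 tested passed the limma test for siTAZ, none higher and 1 lower (5.88%, against 2.47% of all genes). This was TFPI2, a secreted protease inhibitor, with 10.20 and 9.32 in A549 and 10.59 and 10.31 in H441 (mean -0.58 ± 0.13, limma SE; limma adjusted p = 0.0163). LCN2, a partner of MMP9, had differences of -0.07 and -0.49, and FURIN, which cleaves the propeptides of membrane-type MMPs and ADAMs, 0.20 and 0.26. Of 25 proteins shed by ADAM10 or ADAM17, 24 had a single-symbol probe set, and 1 of 21 tested was called. DSG2, a desmosomal cadherin, fell in both lines, from 9.18 to 8.60 in A549 and from 10.81 to 10.32 in H441 (limma adjusted p = 0.0114). Like that of ADAM9, both calls were lost after quantile normalization (limma adjusted p = 0.114 for TFPI2 and 0.055 for DSG2), after cyclic loess (0.222 and 0.113), without the filter on dim genes (0.127 and 0.0594) and without the cell line in the fit (1 for both). The mean differences stayed near those as deposited, at -0.55 for TFPI2 and -0.51 for DSG2 after cyclic loess. ALCAM had 0.39 and -0.44, and AXL -0.06 and -0.72. Of 14 other metzincin and ADAMTS-like genes, 4 were tested and 0 passed the limma test, with 0 at an unadjusted p under 0.05. Among them BMP1, the procollagen C-proteinase, had 0.32 and -0.03, ADAMTSL5 0.08 and -0.16, and TLL1, below the table median on all arrays, 0.32 and -0.16.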

How the data were processed

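RMA is the one tool named in the submitters' processing notes, and the authors deposited its log2 signals, 1 per probe set. No version is given in the sources used here, nor whether the arrays were normalized jointly; array medians ran from 6.05 to 6.25. The scale was inferred from the range (4.20 to 14.83 over 28869 probe sets). Probe sets were named through the platform annotation, where 19310 had 1 symbol. All 65 members matched GRCh38.p14 by Entrez identifier. For genes with several probe sets the one with the highest mean was used. Genes with an array at or above the table median were tested with limma 3.58.1 under R 4.3.3 (linear model with siRNA and cell line as terms and moderated statistics, two-sided; 1 residual and 22.3 prior degrees of freedom), with Benjamini-Hochberg adjustment over 12740 genes and a threshold of 0.05. The p-values set each difference against a spread between these arrays that is pooled mostly over all genes. No group had a replicate, so they do not measure the spread between repeated cultures. The fitting script was checked on simulated data with known changes. The number of arrays limits the precision.

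The rule for members uses symbols and no measured value, but it and the lists were set with earlier results of these data known. Named were members with an unadjusted p under 0.05 for siTAZ, the 10 largest differences per line, the 4 highest means per family, the 8 largest line differences per direction and all inhibitors. A planned search for the zinc-binding motif in member proteins was not run. Probe sets with several symbols were left out, 2 of which held a member symbol. The RefSeq promoter table was matched for 38 members; MMP9, MMP13, MMP2, TIMP2, ADAM9 and ADAM28 are among those without an entry.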

Additional observations from a re-analysis of the deposited data

How the results depend on the processing

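As deposited, 315 genes and 1 member were called for siTAZ. Counts were 400 and 1 after median centring, 146 and 0 after quantile normalization, 20 and 0 after cyclic loess, 92 and 0 without the filter on dim genes, 594 and 3 with a prior that follows mean level (ADAM9, ADAMTS10 with an adjusted p of 0.0287 and TIMP2 with 0.0133), and 0 and 0 without the cell line term, where limma gave 11 genes and 0 members an unadjusted p under 0.05. Calls higher with siTAZ made up 47.9% of all calls as deposited and 30.8% after median centring. Line calls among members numbered 13 with the stricter filter, which tests 15 members, and 26 to 37 under the others. MMP11 lost its line call under each of the 3 other scalings and ADAM17 did too, and the cause was not tested. With siTAZ, members higher numbered 33 in A549 and 47 in H441 with no filter (65 members), and 6 and 7 with the stricter one (11 and 10 members). H441 had 1 member past 1.5-fold after median centring. Each promoter motif was in 4 members (10.5%) when bases before the start alone were searched. Of all promoters, 6.57% then had TGANTCA and 11.9% had GGAATG. Some of the 8 largest line differences per direction had no value under an alternative. MMP21 had none under the other scalings. With the stricter filter ADAM12, ADAM22, ADAM23, ADAM28, ADAMTS9, MMP13 and MMP21 were too dim to be tested. Of the values that remained under alternatives, 102 of 102 kept their sign and call. These members were picked for the size of this difference in the same data, so that count supports nothing. Conversely, 6 members not called between the lines as deposited were called under at least 1 other scaling. The 2 arrays of a cell line are its pair, and the cell line was the block in the main fit.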

Other observations

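Some genes that act with metalloproteases differed widely between the lines; they were picked after their values were seen. CD44, a surface receptor that MMP7, MMP9 and MMP14 are known to bind or cut, had 11.56 and 11.68 in A549 and 5.998 and 5.954 in H441. PAPPA, a secreted metzincin that cuts IGF-binding proteins, had 9.52 and 9.41 in A549 and 5.001 and 5.053 in H441. HBEGF, an EGFR ligand released by ADAM proteins, had 6.06 and 5.94 in A549 and 9.45 and 9.68 in H441, and TGFA 6.21 and 6.49 against 8.90 and 8.91. Each pair is siNTC and then siTAZ.

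The probe set shared by MMP23A and MMP23B, left out above, was at 7.08 and 7.01 in A549 and 7.13 and 7.18 in H441. The second probe set of MMP16 had a difference of 0.35 in A549, against 0.24 for the one used.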
